A study of Homo sapiens with 6 samples.

Results

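Cathepsins are the proteases of the lysosome. They are examined here as 10 genes, CTSA, CTSB, CTSC, CTSD, CTSF, CTSH, CTSK, CTSL, CTSS and CTSZ, taken by gene symbol from the 60675 genes of an RNA-seq count table. All 10 passed the filter on low counts that left 16353 genes for testing. The cells were A2058, an established line from a human metastatic melanoma. The treated group was 3 wells given vitamin C at 100 µM for 48 h, and the control group was 3 wells cultured without it. In both groups the cells grew in 6-well plates, and the paper states that the medium was renewed each day before treatment. The treatment label gives 100 µM, while the protocol text kept with the same labels gives 50 µM sodium ascorbate, and the first is used here. The wells are cultures of a single line, so each p-value sets the difference between groups against the spread between wells of that line. Other lines are not covered.

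Cathepsins are made as inactive proenzymes, pass through the Golgi, are carried to the lysosome mainly by mannose 6-phosphate receptors and are cleaved to the active form at acid pH. Most are cysteine proteases of the papain family, which cystatins inhibit, while CTSD is an aspartic protease and CTSA is a serine carboxypeptidase. In the lysosome they degrade proteins taken up or turned over by the cell, and in antigen-presenting cells they cut antigens and the invariant chain of MHC class II. Tumor cells, melanoma cells among them, can also secrete them, and outside the cell several can degrade collagen, elastin or basement membrane. The study asked whether vitamin C restores the DNA mark hydroxymethylcytosine in melanoma cells, and it also tested cell migration and growth in soft agar. RNA-seq followed, and the paper reports matrix remodelling as the most prominent pathway among the changed genes.

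The libraries held 25672689, 32549362 and 20944956 counts in vitamin C replicates 1, 2 and 3, and 41884588, 26996891 and 16248869 counts in control replicates 1, 2 and 3. Counts of any 2 wells of a group differed beyond sampling noise (chi-square over its degrees of freedom, 2.75 or more). The first principal component held 42.6% of the variance and separated the groups. The second held 21.0% and set vitamin C replicate 3, at -22.5, apart from vitamin C replicates 1 and 2, at 17.5 and 14.5, with control wells between -16.1 and 9.81. Mitochondrial genes took 0.476% to 0.573% of the counts in vitamin C wells and 0.612% to 0.744% in control wells. The log2 fold change of each member is therefore also given without vitamin C replicate 3.

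Promoter windows from RefSeq (GRCh38.p14), which run from 250 bases before to 50 bases after the gene start that RefSeq gives, were found for 10 of the 15 human cathepsin genes. These were 7 of the 10 members (CTSA, CTSC, CTSD, CTSF, CTSH, CTSL and CTSZ) and CTSE, CTSG and CTSV. No window was found for CTSB, CTSK or CTSS. The E-box CACGTG, which reads the same on both strands and is the core of the sites that the lysosomal regulator TFEB and the melanocyte factor MITF bind, was in 3 of the 10 windows, those of CTSD, CTSA and CTSF. It was in 7.26% of all 35116 windows in the table. The windows of CTSD, whose transcript was higher with vitamin C, and of CTSA, whose transcript was not called, are shown with their E-boxes in capitals. The first is chr11:1763878-1764177 on the minus strand and the second is chr20:45891085-45891384 on the plus strand.

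CTSD: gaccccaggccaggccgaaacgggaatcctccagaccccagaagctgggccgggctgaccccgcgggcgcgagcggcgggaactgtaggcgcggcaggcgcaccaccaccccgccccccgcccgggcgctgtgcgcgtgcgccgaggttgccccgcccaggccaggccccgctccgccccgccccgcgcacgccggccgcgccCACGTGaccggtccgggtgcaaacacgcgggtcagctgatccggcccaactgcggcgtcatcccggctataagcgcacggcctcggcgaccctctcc
CTSA: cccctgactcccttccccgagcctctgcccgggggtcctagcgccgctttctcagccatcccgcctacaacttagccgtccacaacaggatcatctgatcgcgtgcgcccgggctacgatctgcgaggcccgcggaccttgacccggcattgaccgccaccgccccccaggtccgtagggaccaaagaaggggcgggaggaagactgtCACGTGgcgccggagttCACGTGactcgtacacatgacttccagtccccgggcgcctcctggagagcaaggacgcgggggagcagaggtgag

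Counted from the RefSeq start, with negative positions before it, the E-box of CTSD began at -47 and those of CTSA at -42 and -25. CTSF, the other cathepsin with the motif, had it at -123 and -51 and was not called either. The longer TFEB-type core TCACGTGA was in CTSA alone among the 10 windows, at -26, and in 0.980% of all windows. The GC box GGGCGG, searched on both strands, was in 7 of the 10 cathepsin windows and in 45.0% of all windows. The number of CpG dinucleotides, the sites at which cytosine is methylated, ran from 22 in CTSF to 43 in CTSD over the 7 members, against a median of 14 over all windows. None of the 10 windows held the AP-1 motif TGANTCA or the STAT motif TTCNNNGAA, which were in 7.71% and 7.66% of all windows, searched on both strands with N as any base. CTSK and CTSS had no window, so they were not searched for any motif. DNA methylation and factor binding were not measured in these files.

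CTSL, the cathepsin with the highest level per length, and CTSV, its closest relative in the human genome and the cathepsin that fell, are shown with the longest run of bases that their windows share in capitals. The windows shown for CTSD, CTSA, CTSL and CTSV all lie inside the GENCODE 29 spans of these genes, which begin further upstream. The window of CTSL is chr9:87725869-87726168 on the plus strand, and that of CTSV is chr9:97039093-97039392 on the minus strand.

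CTSL: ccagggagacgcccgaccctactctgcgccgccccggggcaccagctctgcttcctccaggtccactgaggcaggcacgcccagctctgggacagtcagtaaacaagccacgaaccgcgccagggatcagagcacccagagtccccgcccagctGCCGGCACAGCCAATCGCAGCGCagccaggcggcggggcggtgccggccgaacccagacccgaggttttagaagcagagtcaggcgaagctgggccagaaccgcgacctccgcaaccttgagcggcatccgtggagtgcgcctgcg
CTSV: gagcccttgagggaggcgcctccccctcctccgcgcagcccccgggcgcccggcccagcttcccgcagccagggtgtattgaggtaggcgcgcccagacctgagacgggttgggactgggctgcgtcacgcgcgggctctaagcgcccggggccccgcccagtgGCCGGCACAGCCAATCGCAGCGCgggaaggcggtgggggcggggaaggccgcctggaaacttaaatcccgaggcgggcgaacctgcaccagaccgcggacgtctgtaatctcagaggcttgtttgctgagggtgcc

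The shared run is 23 bases long and begins at -96 in CTSL and at -86 in CTSV. It holds the CCAAT box CCAAT, which was in 4 of the 10 cathepsin windows (CTSL, CTSV, CTSF and CTSC) and, on either strand, in 34.6% of all windows.

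Of the 10 cathepsins, the transcripts of 3, CTSK, CTSS and CTSD, were higher in vitamin C wells than in control wells, none was called lower and 7 were not called. The calls are those of edgeR's quasi-likelihood test at an adjusted p under 0.05 over all 16353 genes. Thus 30% of the members were called, against 11.2% of all genes tested, with 6.09% of all genes called higher and 5.09% called lower. The median log2 fold change of the 10 was -0.06, against -0.0037 for all genes tested. DESeq2, limma-voom and edgeR's exact test each called 3 members higher and 0 lower. Over all 16353 genes, DESeq2 called 1699, limma-voom 1851 and the exact test 2181. At an unadjusted p under 0.05, edgeR took 3 members as higher and 1, CTSH, as lower. CTSC, with an edgeR p of 0.0514, ranked 4253 by p, so fewer than 4253 of the 16353 genes tested lay under 0.05 unadjusted. The exact share of all genes at that threshold was not taken. Counts at an unadjusted p, here and below, therefore have no background share beside them. Without vitamin C replicate 3, edgeR called 3 higher and 1, CTSL, lower. That fit called 1184 genes higher and 911 lower among the 16726 it tested. The count table is of bulk RNA, in which fewer cells holding a transcript and less of it in each cell cannot be told apart.

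**Figure D1:**
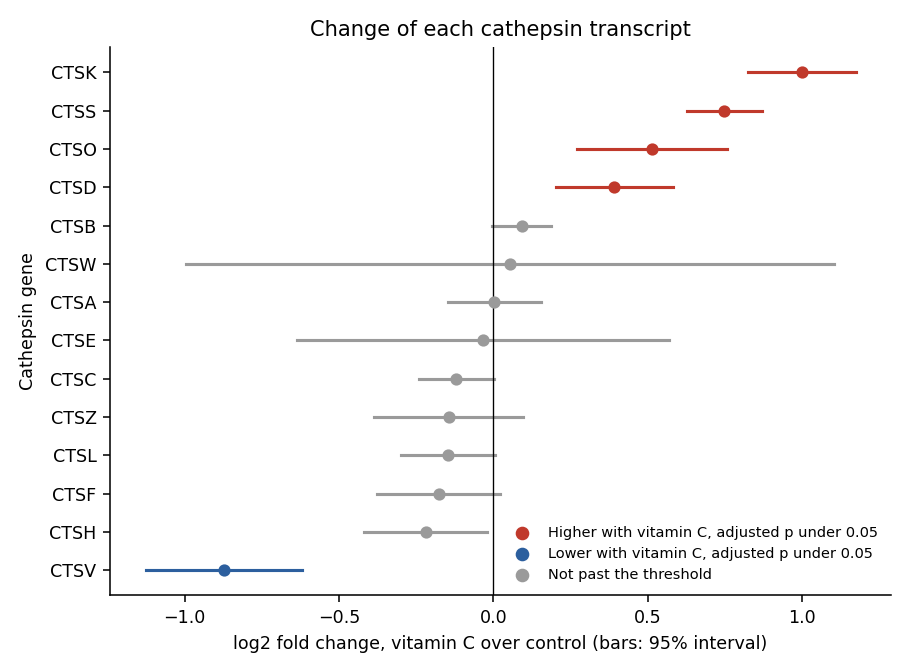
The log2 fold change of each tested cathepsin, vitamin C over control, is plotted with its 95% interval (edgeR, 3 wells against 3). CTSK at 1.00, CTSS at 0.75, CTSO at 0.51 and CTSD at 0.39 were called higher (red), CTSV at -0.87 was called lower (blue), and the others (grey) were not called.

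The cysteine endopeptidases, which cut within a protein chain, held the largest log2 fold changes of the 10 members, those of CTSK and CTSS. CTSK, the main collagen-degrading protease of osteoclasts, had levels of 41.7, 45.4 and 52.5 CPM in the 3 vitamin C wells and 23.0, 23.0 and 23.9 CPM in the 3 control wells, where CPM is the count scaled to a common library size with TMM factors. All vitamin C wells lay above all control wells, and the spread was wider with vitamin C. The means were 46.5 ± 5.51 CPM with vitamin C and 23.3 ± 0.519 CPM in control wells (SD, n = 3 each). The log2 fold change was 1.00 (SE 0.0810, 95% interval 0.82 to 1.17, edgeR adjusted p = 5.12e-06). Behind it stood 1065, 1493 and 1100 counts in vitamin C wells and 958, 617 and 386 counts in control wells. CTSK ranked 35 by p among all genes tested and 138 by size among the 996 genes called higher. Without vitamin C replicate 3, the well with the highest level, the log2 fold change was 0.91 (edgeR adjusted p = 5.47e-08).

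CTSS, which trims the invariant chain of MHC class II in antigen-presenting cells and stays active at neutral pH, had 59.7, 60.8 and 57.1 CPM in vitamin C wells and 35.2, 34.7 and 36.0 CPM in control wells. The wells of each group lay close together and the groups did not overlap. The means were 59.2 ± 1.86 CPM with vitamin C and 35.3 ± 0.646 CPM in control wells (SD, n = 3 each). The log2 fold change was 0.75 (SE 0.0562, 95% interval 0.63 to 0.87, edgeR adjusted p = 2.73e-06), and 0.78 without vitamin C replicate 3. CTSS ranked 25 by p among all genes tested and had the smallest p of the cathepsins. CTSK and CTSS were called under all 16 alternative settings, with log2 fold changes from 0.91 to 1.07 for CTSK and from 0.73 to 0.78 for CTSS.

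CTSL and CTSB, the widely expressed endopeptidases of most cells, were not called. CTSL had 167, 163 and 200 CPM in vitamin C wells and 199, 183 and 205 CPM in control wells. Vitamin C replicates 1 and 2 lay below all control wells, and vitamin C replicate 3 lay among them. With all wells its log2 fold change was -0.15 (95% interval -0.30 to 0.00, edgeR adjusted p = 0.208). Without vitamin C replicate 3 it was -0.24 and was called lower (edgeR adjusted p = 0.00366). CTSB, which can also remove dipeptides from the C-terminal end, had 155, 150 and 148 CPM in vitamin C wells and 142, 141 and 143 CPM in control wells. Its groups did not overlap, but the log2 fold change of 0.09 was not called (95% interval -0.00 to 0.19, edgeR adjusted p = 0.216, and 0.11 without vitamin C replicate 3). CTSF, an endopeptidase that can process the invariant chain in macrophages, had 11.9, 13.8 and 15.1 CPM in vitamin C wells and 15.2, 15.7 and 15.2 CPM in control wells. Every vitamin C well was below every control well, although vitamin C replicate 3 and control replicate 1 nearly tied, at 15.13 and 15.15 CPM. The log2 fold change of CTSF, -0.18, was not called (95% interval -0.38 to 0.02, edgeR adjusted p = 0.251). It was -0.25 without vitamin C replicate 3 (edgeR adjusted p = 0.0858) and -0.09 without vitamin C replicate 1 (edgeR adjusted p = 0.605).

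The cysteine exopeptidases, which trim chain ends, were not called either. CTSC, the dipeptidyl peptidase that activates granule serine proteases in leukocytes, had the highest counts of the 10 genes. Its levels were 347, 350 and 308 CPM in vitamin C wells and 384, 349 and 359 CPM in control wells. The wells overlapped, and the log2 fold change was -0.12 (95% interval -0.24 to 0.00, edgeR adjusted p = 0.198), or -0.06 without vitamin C replicate 3 (edgeR adjusted p = 0.462). CTSH, mainly an aminopeptidase, had 9.27, 10.4 and 11.03 CPM in vitamin C wells and 11.5, 12.0 and 12.3 CPM in control wells, with no overlap. Its log2 fold change was -0.22 (95% interval -0.42 to -0.02, edgeR adjusted p = 0.152), or -0.26 without vitamin C replicate 3 (edgeR adjusted p = 0.0914). CTSZ, a carboxypeptidase, had 73.7, 74.9 and 53.1 CPM in vitamin C wells and 78.4, 64.9 and 80.9 CPM in control wells. The lowest of the 6 values was in vitamin C replicate 3. Without that well the log2 fold change of CTSZ was -0.00063, against -0.15 with it (95% interval -0.39 to 0.10, edgeR adjusted p = 0.459).

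Of the 2 members outside the cysteine class, CTSD was called and CTSA was not. CTSD, the main aspartic protease of the lysosome, had 22.2, 26.0 and 27.2 CPM in vitamin C wells and 20.6, 18.2 and 18.3 CPM in control wells. The groups did not overlap, although vitamin C replicate 1 and control replicate 1 lay near each other. CTSD had a log2 fold change of 0.39 (SE 0.0878, 95% interval 0.20 to 0.58, edgeR adjusted p = 0.0117). The call was lost without control replicate 2 (edgeR adjusted p = 0.0635), control replicate 3 (0.0567) or vitamin C replicate 2 (0.0558), with log2 fold changes of 0.36, 0.37 and 0.36. Without vitamin C replicate 3 it was 0.34 and still called (edgeR adjusted p = 0.0148). Of the exon bases of CTSD, 41.7% overlap those of AC068580.4 on the same strand and 15.8% overlap a gene on the opposite strand, and 38.7% of its 100-base windows also occur in another gene, so the split of its reads is uncertain. CTSA, a serine carboxypeptidase that also protects the sialidase NEU1 and the beta-galactosidase GLB1 in a complex, had 72.6, 78.3 and 79.2 CPM in vitamin C wells and 80.5, 67.7 and 81.6 CPM in control wells. Its log2 fold change was 0.00 (95% interval -0.15 to 0.15, edgeR adjusted p = 0.985), or -0.01 without vitamin C replicate 3. Exons of CTSA overlap genes on the opposite strand over 28.5% of their length, NEURL2 and PLTP among them.

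**Figure D2:**
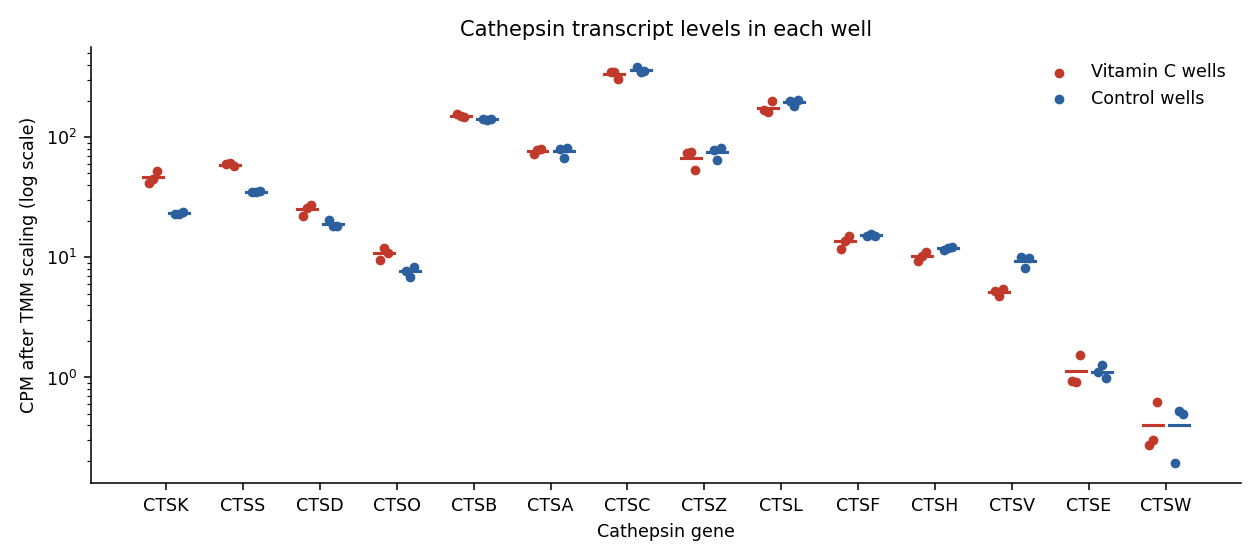
Each point is a well and each bar a group mean, with CPM after TMM scaling on a log axis and vitamin C wells (red) left of control wells (blue). CTSK, CTSS, CTSD and CTSO lie higher in all vitamin C wells, CTSV lies lower in all of them, and CTSC has the highest CPM in both groups.

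Over the 10 genes, all vitamin C wells lay above all control wells for 4 (CTSK, CTSS, CTSD and CTSB) and below them for 2 (CTSF and CTSH). Over all genes tested, the wells of the groups did not overlap for 30.6%, with 15.6% above and 14.9% below. In GENCODE 29 (GRCh38) each of the 10 is a protein-coding gene. CTSC, CTSD and CTSF are on chromosome 11 (88293592 to 88337787, 1752752 to 1764573 and 66563463 to 66568841, all on the minus strand). CTSA (45890144 to 45898820, plus strand) and CTSZ (58995185 to 59007247, minus strand) are on chromosome 20. CTSB is on chromosome 8 (11842524 to 11869448), CTSH on chromosome 15 (78921058 to 78949574), both on the minus strand, and CTSL on chromosome 9 (87725519 to 87731393, plus strand).

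The human genome has 5 further cathepsin genes, of which 4 were tested. With vitamin C, 1 was higher and 1 was lower, which is 50%, against 11.2% of all genes tested. CTSV, a relative of CTSL known from thymus and testis, on chromosome 9 (97029679 to 97039643, minus strand), had 5.20, 4.802 and 5.44 CPM in vitamin C wells and 10.1, 8.23 and 9.84 CPM in control wells. The groups did not overlap. CTSV had a log2 fold change of -0.87 (SE 0.118, 95% interval -1.13 to -0.62, edgeR adjusted p = 0.000343), and it was called lower under all 16 alternatives, with values from -0.96 to -0.80 (-0.91 without vitamin C replicate 3). No 100-base window of its transcripts occurs in CTSL or in any other gene. CTSO, a cysteine cathepsin of little known function, on chromosome 4 (155924118 to 155953917, minus strand), had 9.55, 12.1 and 10.8 CPM in vitamin C wells and 7.68, 6.93 and 8.35 CPM in control wells. Its log2 fold change was 0.51 (SE 0.113, edgeR adjusted p = 0.0103), or 0.52 without vitamin C replicate 3, and the call was lost without control replicate 2 (edgeR adjusted p = 0.0580) or vitamin C replicate 2 (0.0643).

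The other members of the wider family are proteases of blood cells and epithelia, and they were near the limit of detection. CTSE, an aspartic protease, had 24, 30 and 32 counts in vitamin C wells and 46, 34 and 16 counts in control wells, with a log2 fold change of -0.03 (95% interval -0.64 to 0.57, edgeR adjusted p = 0.960). CTSW, of cytotoxic lymphocytes, had 7, 10 and 13 counts in vitamin C wells and 8, 14 and 8 counts in control wells, with a log2 fold change of 0.05 (95% interval -0.996 to 1.10, edgeR adjusted p = 0.964). CTSG, of neutrophil granules, had 0 counts in each vitamin C well and 1, 1 and 0 counts in control wells and was not tested. The intervals of CTSE and CTSW both hold the log2 fold change of CTSO, so a difference of that size is not excluded for either gene.

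To compare levels between genes, CPM was divided by the length of the gene's exons in kilobases. On this scale CTSL was the highest cathepsin, with 74.7 ± 8.48 per kb in vitamin C wells and 82.7 ± 4.72 per kb in control wells (SD, n = 3 each). CTSZ (33.0 per kb with vitamin C, 36.7 per kb in control wells) and CTSC (29.3 per kb with vitamin C, 31.9 per kb in control wells) came next, with wells that overlapped each other in both groups. CTSK had 24.7 ± 2.92 per kb in vitamin C wells, where it ranked 4, and 12.3 ± 0.275 per kb in control wells, where it ranked 6. Divided by the longest transcript instead, CTSK ranked 5 with vitamin C and 6 in control wells. By the longest transcript it lay below CTSB in vitamin C wells, at 27.5 against 38.9 per kb. By exon length, CTSK overlapped CTSC above it in vitamin C wells and lay clear of CTSB below it, at 20.3 per kb. In control wells, also by exon length, it lay below CTSB, at 19.1 per kb, and overlapped CTSA, at 13.1 per kb.

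CTSS had 14.0 ± 0.441 per kb in vitamin C wells, where it overlapped CTSA at 13.1 per kb, and 8.35 ± 0.153 per kb in control wells, where it was below CTSA and CTSK. CTSD followed with 8.03 per kb in vitamin C wells and 6.08 per kb in control wells, then CTSF with 4.69 per kb in vitamin C wells and 5.29 per kb in control wells. CTSH was lowest, with 1.73 per kb in vitamin C wells and 2.03 per kb in control wells. Divided by the longest transcript instead, CTSA lay clear above CTSS in vitamin C wells, at 25.1 against 14.4 per kb. It also lay clear above CTSK in control wells, at 25.1 against 13.8 per kb.

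The summed level of the 10 cathepsins was 220, 223 and 228 per kb in vitamin C wells and 223, 204 and 225 per kb in control wells, so the groups overlapped. Its make-up differed. CTSK made up 10.1%, 10.8% and 12.2% of the sum in vitamin C wells and 5.46%, 5.97% and 5.62% in control wells. CTSS made up 6.43%, 6.44% and 5.93% in vitamin C wells and 3.73%, 4.03% and 3.78% in control wells. Together their share averaged 17.3% ± 0.822 with vitamin C and 9.53% ± 0.421 in control wells (SD, n = 3 each), with no overlap. CTSL made up 33.4% ± 3.23 with vitamin C and 38.02% ± 0.360 in control wells (SD, n = 3 each). These shares depend on the gene length used, here that of all exons, and shares by the longest transcript were not taken. The ratio of CTSK to CTSS per kb was 1.56, 1.67 and 2.06 in vitamin C wells and 1.46, 1.48 and 1.49 in control wells, so each vitamin C well had a higher ratio than any control well. The ratio of CTSL to CTSV per kb was 63.9, 67.4 and 72.9 in vitamin C wells and 39.2, 44.2 and 41.3 in control wells. Neither ratio overlapped between groups, with a two-sided exact permutation p of 0.1 for each, the smallest that 3 wells against 3 allow. Each ratio holds a gene already called from the same wells, so both are descriptions and give no separate support.

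**Figure D3:**
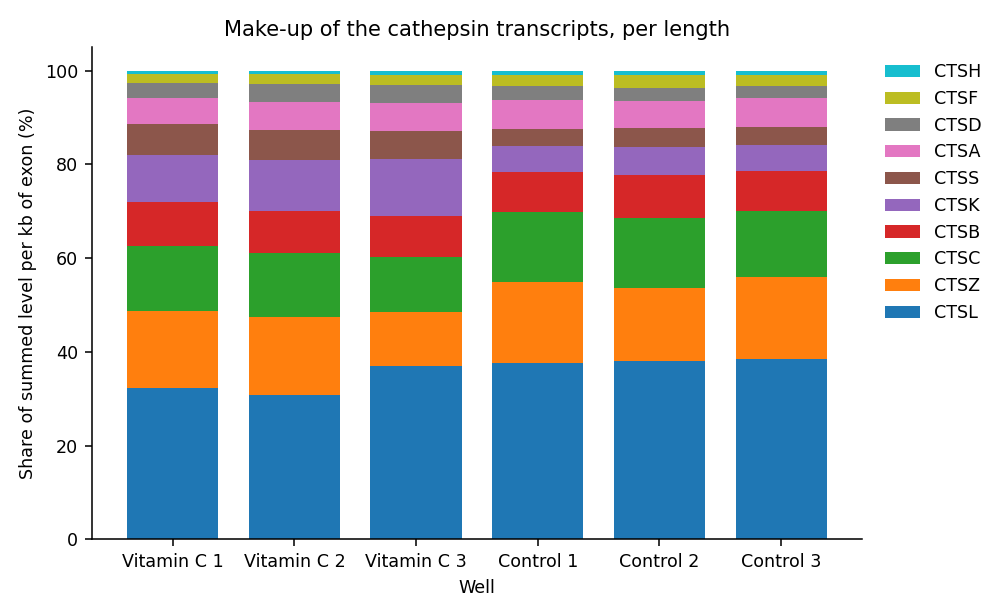
Each bar is a well and shows the share (%) of every cathepsin in the summed level per kb of exon of the 10 members, with vitamin C wells left of control wells. The CTSK and CTSS segments together average 17.3% in vitamin C wells and 9.53% in control wells, and CTSL is the largest segment in every well.

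CTSK and CTSS are neighbours on chromosome 1. CTSS lies at 150730196 to 150765957 and CTSK at 150796208 to 150808323, both on the minus strand, with 30250 bases between them. Within 500 kb on each side of the pair, 33 other genes were tested, of which 3 were called higher by edgeR and 0 lower, with a median log2 fold change of 0.06. This is 9.09% of them, against 11.2% of all genes tested. At an unadjusted p under 0.05 there were 7 higher and 2 lower. DESeq2 called 2 higher and 0 lower (6.06%), against 1699 of all 16353 genes tested. Within 250 kb, 16 other genes were tested and 2 were called higher, HORMAD1 and ECM1, both described below. Of all genes tested, 11.2% were called. HORMAD1, a meiosis and cancer-testis gene that lies 9307 bases from CTSS on the same strand, had 60, 64 and 38 counts in vitamin C wells and 1, 6 and 1 counts in control wells. It passed the filter on low counts only through its vitamin C wells. Its call, which is counted among the edgeR calls of both windows, therefore carries no weight here. CA14, a membrane carbonic anhydrase, had a log2 fold change of 0.92 (SE 0.0894, edgeR adjusted p = 2.32e-05). The extracellular matrix protein gene ECM1 had one of 0.33 (SE 0.0957, edgeR adjusted p = 0.0415).

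The neighbours GOLPH3L, ARNT and SETDB1 were not called. GOLPH3L, a Golgi protein gene beyond HORMAD1, had a log2 fold change of 0.00 (95% interval -0.18 to 0.18, edgeR adjusted p = 0.993). On the other side of CTSK, ARNT, the partner subunit of hypoxia-inducible and dioxin receptors, had 0.09 (95% interval -0.04 to 0.21, edgeR adjusted p = 0.387). SETDB1, a histone methyltransferase, had 0.05 (95% interval -0.08 to 0.18, edgeR adjusted p = 0.658).

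**Figure D4:**
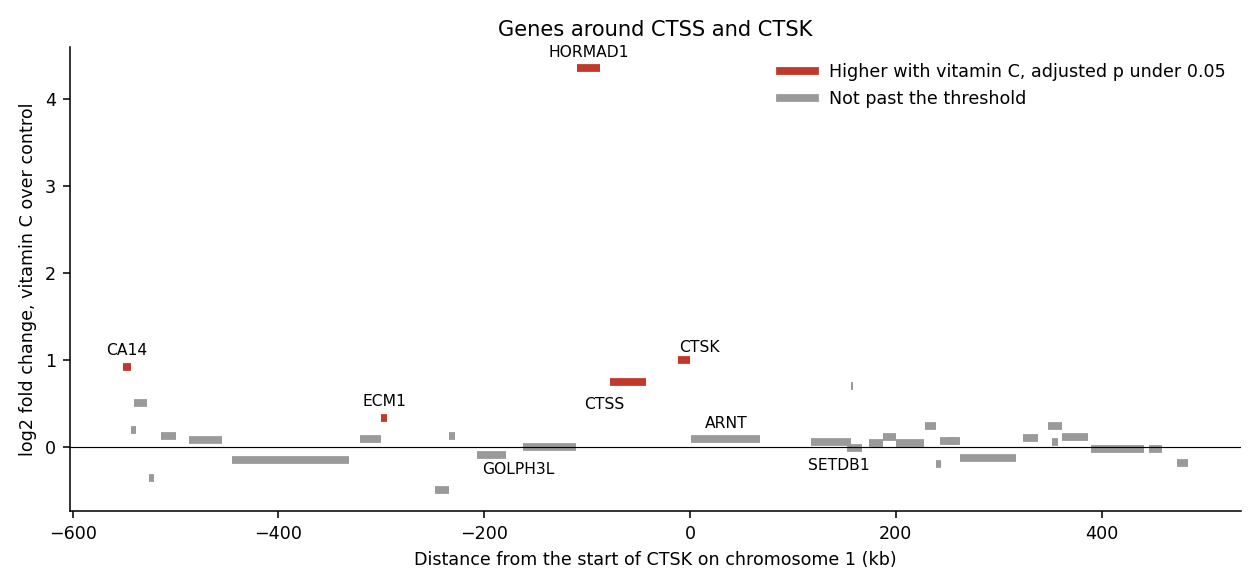
Each bar is a tested gene within 500 kb of CTSS and CTSK, drawn at its distance in kb from the start of CTSK on chromosome 1 and at its log2 fold change, vitamin C over control. CTSK, CTSS, HORMAD1, CA14 and ECM1 are called higher (red), and the bars of GOLPH3L, ARNT and SETDB1 lie near 0. HORMAD1 passed the filter on low counts only through its vitamin C wells.

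The 3 protein-coding genes whose log2 CPM ran most like that of CTSK over the 6 libraries were FAP (Pearson r = 0.998), ADAMTS4 (0.997) and RABGAP1L (0.996), with log2 fold changes of 0.78, 0.56 and 0.19. For CTSS they were NEDD4 (Pearson r = 0.999), HDAC9 (0.999) and GBP3 (0.998), with log2 fold changes of 0.43, 0.65 and 0.50. These r are descriptions over 6 libraries in 2 treatment groups, and the difference between the groups enters each of them.

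Of 32 tested genes that act on cathepsins, as inhibitors, processing enzymes and partners, sorting factors or regulators, 1 was called (3.12%), against 11.2% of all genes tested. Without vitamin C replicate 3, 4 were called (12.5%), and the same fit called 2095 of the 16726 genes it tested. Of the 16 cystatin and other inhibitor genes, 14 had at most 9 counts in any well, and the 2 tested were not called by edgeR, DESeq2, limma-voom or the exact test, nor at an unadjusted p under 0.05. CST3, the secreted cystatin C, had 10.8, 11.8 and 14.0 CPM in vitamin C wells and 13.3, 12.2 and 13.9 CPM in control wells (log2 fold change -0.11, 95% interval -0.33 to 0.11). CSTB, the cytosolic stefin B, had 29.2, 29.5 and 30.7 CPM in vitamin C wells and 27.8, 28.1 and 32.7 CPM in control wells (log2 fold change 0.02, 95% interval -0.13 to 0.18). Per kb of exon, the 8 cysteine cathepsins summed to 18.6 ± 0.811 times CST3 and CSTB together in vitamin C wells and to 17.98 ± 1.02 times in control wells (SD, n = 3 each).

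Of 5 genes for processing enzymes and partners, edgeR called 0, DESeq2 called 0, and 1 was higher and 2 were lower at an unadjusted p under 0.05. LGMN, the legumain that cleaves several cathepsins, had a log2 fold change of -0.23 (95% interval -0.45 to -0.01, edgeR adjusted p = 0.178). The partners of CTSA, NEU1 and GLB1, had 0.18 (95% interval 0.01 to 0.36) and -0.09 (95% interval -0.25 to 0.06). Of 14 genes of lysosomal sorting, the mannose 6-phosphate receptors included, edgeR and DESeq2 each called 1 lower and 0 higher. By edgeR this is 7.14%, against 11.2% of all genes tested. At an unadjusted p under 0.05, 0 were higher and 3 were lower. The gene that edgeR called lower was SORL1, a sorting receptor, with 45.2, 46.9 and 42.6 CPM in vitamin C wells and 55.8, 57.5 and 50.8 CPM in control wells (log2 fold change -0.29, SE 0.0637, edgeR adjusted p = 0.0108). Of 11 regulators of lysosomal genes, the TFEB and MITF family included, 0 were called by edgeR, DESeq2 or limma-voom. The exact test of edgeR called 1 (9.09%), against 2181 of all 16353 genes tested. At an unadjusted p under 0.05, 3 regulators were higher and 0 lower.

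Other lysosomal genes are given for comparison. Of 58 lysosome genes apart from cathepsins, 56 were tested, 6 were called higher and 2 lower. This is 14.3%, against 11.2% of all genes tested, and the median log2 fold change was 0.04. The called enzymes with the smallest p were GALC, a galactosylceramidase (0.44, SE 0.0635, edgeR adjusted p = 0.00059), LIPA, the acid lipase (0.31, SE 0.0562, edgeR adjusted p = 0.0029), and MANBA, a beta-mannosidase (0.25). NPC1, a cholesterol transporter, had 0.23. The 2 called lower, chosen after their values were seen, were the sulfatase IDS at -0.43 and the alpha-glucosidase GAA at -0.33. CTSK, CTSS and CTSV each changed by more than any called gene of that list.

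Of the matrix metalloproteinases and their TIMP inhibitors, another group of matrix proteases, 13 of 27 were tested, 4 were called higher and 3 lower. This is 53.8%, against 11.2% of all genes tested, and the median was 0.05. TIMP3, an inhibitor bound to matrix, had a log2 fold change of 0.49, the membrane protease MMP14 had 0.23, and MMP8 and MMP15 had -0.36 and -0.42. Of 12 genes of the MHC class II pathway, in which CTSS acts, 8 were tested, 6 were called higher and 0 lower. This is 75%, against 11.2% of all genes tested, and the median was 0.87. DESeq2 gave the same counts, against 1699 called of all 16353 genes. At an unadjusted p under 0.05, 8 were higher and 0 lower. CD74, the invariant chain that CTSS trims, had 103, 109 and 132 CPM in vitamin C wells and 30.5, 28.9 and 33.0 CPM in control wells (log2 fold change 1.90, SE 0.0864). CIITA, the class II transactivator, had a log2 fold change of 0.85, HLA-DQB1 1.15 and HLA-DMA 1.07. These lists share no gene with the 10 members, and 4 of the 5 partner genes, NEU1 and GLB1 among them, also stand in the lysosome list.

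**Figure D5:**
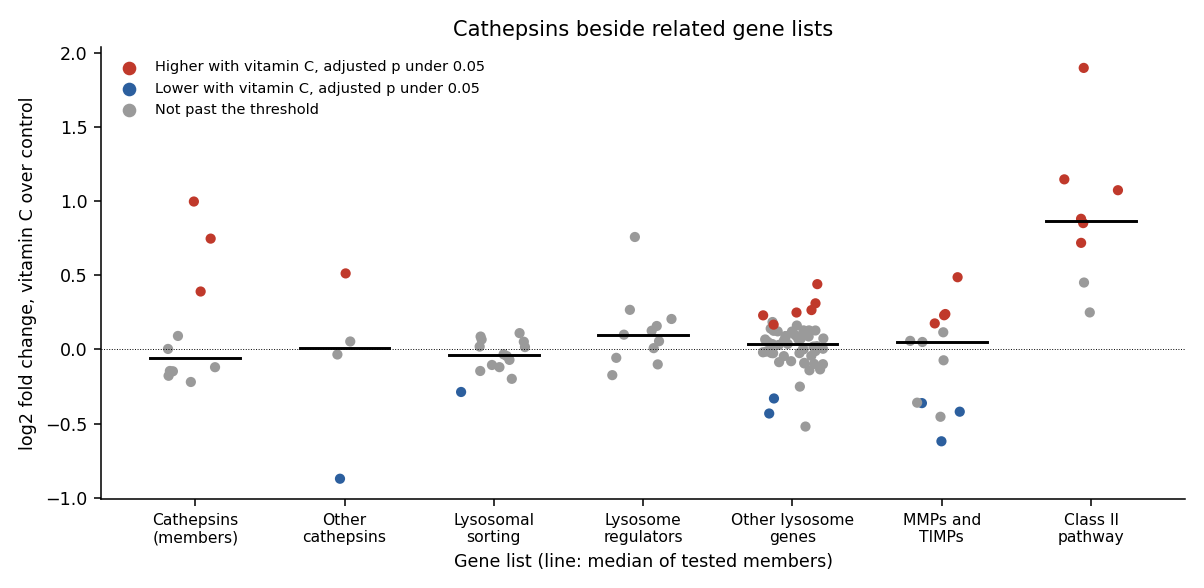
Each point is a tested gene, the vertical axis is its log2 fold change (vitamin C over control), and the line is the median of the list. The cathepsins spread from -0.22 to 1.00 around a median of -0.06, and the class II pathway lies highest, with a median of 0.87.

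Cathepsins are also markers of other cell types, so the markers of those cells were read beside them. Of 18 macrophage and dendritic cell markers, 12 had at most 9 counts in any well, C1QA, MARCO and AIF1, named after their values were seen, had 0 in all wells, 0 were called higher by edgeR, DESeq2 or at an unadjusted p under 0.05, and 1, LYZ, was lower (log2 fold change -0.50). Their summed level was 9.04 to 9.64 CPM in vitamin C wells and 11.1 to 12.3 CPM in control wells. Of 8 osteoclast markers, 4 were tested and 3 were called higher, ITGB3 at 0.31, TNFRSF11A at 0.32 and ACP5 at 0.49, while OSCAR, named after its values were seen, had 0 counts. Their summed level was 203 to 221 CPM in vitamin C wells and 167 to 181 CPM in control wells. Among tested genes, edgeR called 20% of the macrophage and dendritic cell markers and 75% of the osteoclast markers. Over all genes tested it called 11.2%.

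Of 10 fibroblast markers, 6 were tested and 3 were called higher, LUM at 0.83, PDGFRB at 1.596 and COL3A1 at 0.76. Their summed level was 98.0 to 115 CPM in vitamin C wells and 59.2 to 67.5 CPM in control wells, and THY1, named after its values were seen, had at most 5 counts. The 8 cytotoxic lymphocyte markers had too few counts to test and summed to 0.157 to 0.239 CPM in vitamin C wells and 0.216 to 0.619 CPM in control wells. Epithelial markers summed to 56.6 to 59.3 CPM in vitamin C wells and 63.2 to 67.5 CPM in control wells, with CDH3 higher at 1.97 by edgeR but not by DESeq2, and KRT18 lower at -0.21 among 4 tested. All 12 melanoma lineage markers were tested, and 5 were called higher and 1 lower. The 4 with the smallest p were the melanosome genes MLANA, with a log2 fold change of 3.38, PMEL with 0.73, TYR with 0.29 and DCT with -0.30. The 12 summed to 3192 to 3316 CPM in vitamin C wells and 3327 to 3443 CPM in control wells, and DCT, the one called lower, averaged 1234 CPM in vitamin C wells and 1515 CPM in control wells. In each of the fibroblast, epithelial and melanoma lineage lists, edgeR called 50% of the tested markers, against 11.2% of all genes tested. The part of the osteoclast and fibroblast markers in the rise of CTSK was not tested.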

How the data were processed

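RNA-seq was examined for 3 vitamin C and 3 control wells of A2058 cells. The authors deposited raw counts per gene. Ribosomal RNA was depleted, paired-end reads were aligned with STAR and genes were counted with HTSeq. GENCODE v19 is the annotation named in the paper, whereas hg38 is the build in the submitters' processing notes, which also list CASAVA 1.4 and Trim Galore. The strand setting of the counting is not given in the sources used, so reads of genes that overlap on opposite strands could not be separated. Symbols, exon lengths and positions came from GENCODE 29 (57055 of 60675 genes matched).

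In R 4.3.3, edgeR 4.0.16 filtered genes on low counts and applied TMM scaling. The quasi-likelihood test compared vitamin C with control wells with no other term, and p-values were adjusted by Benjamini-Hochberg over all genes tested, with calls under 0.05. The fit was tested on simulated data. Alternatives were other scalings, filters, thresholds, gene lengths and windows, DESeq2 1.42.0, limma-voom (limma 3.58.1), edgeR's exact test, the replicate number as a block, and each well left out in turn. Depth ran from 16248869 to 41884588 counts per well.

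The members and lists were chosen with earlier results of these data known. Named genes are the 10 members, the 5 other cathepsins, up to 4 called genes with the smallest p of each other list, the known partners CST3, CSTB, LGMN, CD74, NEU1 and GLB1, the called genes and nearest protein-coding neighbours around CTSS and CTSK, and the 3 genes most like each of CTSK and CTSS, by log2 of CPM plus 0.5. Other names are marked as chosen after their values were seen.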

Additional observations from a re-analysis of the deposited data

How the results depend on the processing

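CTSK, CTSS and CTSV were called in all 16 alternatives, with edgeR, DESeq2 or limma-voom adjusted p of at most 0.000109, 7.76e-05 and 0.00427. CTSD was called in 13 of 16 and CTSO in 14 of 16. At an adjusted p under 0.01, 2 members were called, and neither CTSD nor CTSO was. Leaving out each well in turn gave log2 fold changes of 0.34 to 0.47 for CTSD and 0.42 to 0.60 for CTSO, 2 to 3 members called higher and 0 to 1 called lower. The 1 called lower was CTSL without vitamin C replicate 3 (-0.24). Signs that turned were those of genes that were not called. The log2 fold change of CTSA was -0.0074 with upper quartile factors and -0.0796 to 0.0477 with a well left out. That of CTSW was -0.0521 with the replicate block and -0.40 to 0.38 with a well left out, and that of CTSE was -0.28 to 0.11. Ranked by the longest transcript in place of all exons, 4 of 10 members kept their rank in vitamin C wells, CTSL first among them. The cause of these changes was not tested.

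Over all genes, 1829 were called. Leaving out control replicate 1, 2 or 3 gave 1092, 977 and 964 calls, and leaving out vitamin C replicate 1, 2 or 3 gave 1584, 1136 and 2095, with fewer wells in each fit. The labels give the replicate numbers no meaning. Same-numbered wells deviated together with correlations of 0.12, -0.02 and 0.09, which cannot decide whether they were paired. With the replicate number as a block, 1020 genes were called higher and 893 lower, and the calls of the 10 members, CTSO and CTSV were as without it, CTSK at 0.98, CTSS at 0.75, CTSD at 0.39, CTSO at 0.50 and CTSV at -0.86. Vitamin C replicates 1 and 3 correlated best with the control wells of the same number, and vitamin C replicate 2 with control replicate 1 (0.11). CTSE, CTSG and CTSW had too few counts for small differences to be detectable.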
